A study of Mus musculus with 42 samples.

Results

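The transition from the late 2-cell to the 4-cell stage was followed in mouse embryos that developed with FK866, an inhibitor of NAMPT, the enzyme that turns nicotinamide into the NAD+ precursor nicotinamide mononucleotide (NMN). It was described from 4 RNA-seq samples of the 42 in the series (18 of them RNA-seq), which were chosen by their stage and treatment and not by any measured value: 2 libraries of late 2-cell embryos at 48 h after hCG and 2 libraries of 4-cell embryos at 58 h, each made from 3 pooled embryos of superovulated ICR mice. Both groups had been given 0.01 µM FK866 from the zygote stage in KSOM medium. The embryos set beside them were untreated controls of both stages, which received the DMSO vehicle, and embryos of both stages given 0.01 µM FK866 with 10 µM NMN, also with 2 libraries of 3 embryos per group. Early 2-cell embryos at 34 h, with no agent, are used as an outside reference. A pool of 3 embryos is 1 value per library, so embryos within a pool cannot be told apart, and at these stages less RNA per embryo and less of a transcript within it cannot be told apart either.

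In the mouse, minor zygotic genome activation (ZGA) is placed by the study between the zygote and the early 2-cell embryo. The 2-cell embryo destroys RNAs inherited from the oocyte and passes through a short burst of 2-cell genes such as the Zscan4 family and the MERVL-linked genes. It then starts broad transcription of genes for ribosomes, splicing, protein turnover and respiration. The 4-cell embryo is the first stage at which the early burst has been shut down and this housekeeping programme dominates. NAD+ is a carrier of electrons in glycolysis and the TCA cycle and the co-substrate of sirtuins, which remove acetyl groups from histones, and of PARP enzymes.

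The deposited values are FPKM (fragments per length of exon and per depth of the library) in 1 column per group, and each column is the sum over the libraries of the group. The genes analysed lie on chromosomes 1 to 11, so the gene counts and lists below leave out those of other chromosomes. The column headed late-2-cell-Sirt1 was used as 4-cell FK866, because 84 of 84 values that the study's own table gives for 4-cell FK866 embryos are equal to it within a relative tolerance of 1e-05, and the column headed late-2-cell-FK866 was used as late 2-cell FK866 (118 of 118 values equal). By the same check the columns headed late-2-cell-TSA and 4-cell-con hold 4-cell control and 4-cell FK866+NMN embryos. The header and the table therefore name different samples for the 4-cell groups, and every value below rests on the table. The column headed 4-cell-FK866 is that of 1 library, whose log2(FPKM + 1) correlated with the late 2-cell FK866 libraries at r = 0.699 to 0.701 and with the 4-cell FK866 libraries used here at r = 0.428 to 0.451 across 8529 genes.

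Each summed value was separated into its 2 libraries, since it is a whole number of reads of either library divided by gene length and library total. The late 2-cell FK866 libraries had 8963343 and 8129784 reads and the 4-cell FK866 libraries 10003481 and 3169677. The other 8 libraries of these stages had 4164896 to 8466640 reads. Between the 2 libraries of a group r was 0.767 at late 2-cell and 0.862 at 4-cell, and between the stages it was 0.548 to 0.567. The 4-cell FK866 libraries correlated with the 4-cell controls at r = 0.833 to 0.894. Of 10 cleavage-stage markers in the rows, 9 or 10 reached 1 FPKM in each of the 4 FK866 libraries, and their summed level was 2038 to 2069 FPKM at late 2-cell and 3282 to 3468 FPKM at 4-cell, although 6 of the 9 that were tested fell. The 10 markers of cumulus or granulosa cells summed to 1.42 to 6.596 FPKM, with 7 or 8 of them at 0 in each library. Sperm markers (5 in the rows) summed to 34.7 to 42.0 FPKM at late 2-cell and 2.40 to 3.26 at 4-cell, mostly from Odf2, and blood markers (9) to 16.6 to 44.0 FPKM. Trophectoderm markers (9) summed to 50.9 to 60.4 FPKM at late 2-cell and 91.3 to 236.0 FPKM at 4-cell. The part of these lists in the results was not tested.

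The comparison asks which changes of the late 2-cell to 4-cell transition still take place in embryos given a NAMPT inhibitor. Of 8937 genes at 1 FPKM or more per library in either group, 2562 were more than 2-fold higher at 4-cell (28.7%) and 3409 more than 2-fold lower (38.1%). All fold changes here are log2 differences of mean FPKM per library with a pseudocount of 1, which understates changes of low genes. Both libraries could be separated in all 12 libraries for 8529 of these genes. A gene was called when limma's test on log2(FPKM + 1) gave an adjusted p (Benjamini-Hochberg) under 0.05 and its log2 fold change exceeded 1 in the same direction. By this rule 598 genes rose (7.01%) and 853 fell (10.0%). In all 598 and all 853 both 4-cell libraries lay beyond both late 2-cell libraries. The calls rest on these same libraries, so the separation follows largely from the call and gives it no further support. Of all genes tested, 28.3% and 31.4% lay apart in these directions. The genes that rose had a median of 10.4 FPKM at late 2-cell and 70.1 FPKM at 4-cell. The genes that fell went from a median of 25.5 FPKM to 0.941 FPKM, and 221 of them had no read in either 4-cell library. The median over all genes tested was -0.22, so that the split into 41.2% higher and 58.8% lower calls depends on the scale: with each library centred on its median gene, which moves the median by 0.48 to 0.25, 780 genes were called higher and 440 lower (63.9% higher). The count of genes that fell was 470 without the larger and 485 without the smaller 4-cell FK866 library. Without 1 of the 4 FK866 libraries at a time, 209 of the 598 and 337 of the 853 genes passed in every fit.

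Among the 10 largest rises were genes for mitochondrial translation, respiratory complex I and the proteasome. Tufm, the mitochondrial translation elongation factor, stood at 0 and 0.347 FPKM in the late 2-cell libraries and at 61.4 and 74.2 FPKM in the 4-cell libraries (log2 fold change 5.87, limma SE 0.94, adjusted p = 0.00361). The 4-cell libraries were far above the late 2-cell pair and close to each other. Ndufs3, a core subunit of respiratory complex I, had no read at late 2-cell and 26.0 and 14.3 FPKM at 4-cell. With 3 reads over both late 2-cell libraries as the floor, this is at least 250.5-fold higher (limma adjusted p = 0.00813). This floor and those below cover counting error only, and not the spread between libraries. Ndufaf1, an assembly factor of the same complex, went from 0.0743 and 0 FPKM to 33.0 and 20.0 FPKM (adjusted p = 0.0182 in limma). Psmg3, a chaperone of proteasome assembly, rose from 0.0386 and 0 FPKM to 30.7 and 20.1 FPKM (limma adjusted p = 0.00168). Yif1b, a membrane protein of transport from the endoplasmic reticulum to the Golgi, rose from 0 and 1.26 FPKM to 75.8 and 38.2 FPKM (limma adjusted p = 0.00153). In each of these genes the groups did not overlap, which the choice of the named rises required.

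Arl6ip4, a splicing-related protein, was read in neither late 2-cell library and had 10.1 and 54.7 FPKM at 4-cell, which is at least 266.3-fold higher. The 4-cell libraries themselves were far apart here. Nudt2, which cleaves diadenosine tetraphosphate, had no read at late 2-cell and 14.2 and 38.5 FPKM at 4-cell, at least 126.7-fold higher by counting error alone. In the late 2-cell libraries with FK866 and NMN it had 0 and 21.2 FPKM, so libraries of a group can differ by more than such a floor. Gtsf1l, Rasl10a, a Ras-like GTPase, and Slc8b1, the mitochondrial sodium-calcium exchanger, complete the 10 largest rises among genes with ordinary names. Gtsf1l was at 0.136 and 0 FPKM and then at 30.9 and 20.3 FPKM, Rasl10a at 0 and 2.96 and then at 83.1 and 35.5, and Slc8b1 at 0 and 0.0710 and then at 27.0 and 18.2. The limma adjusted p of these 5 genes lay between 0.00616 (Rasl10a) and 0.0298 (Nudt2).

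Among the 10 largest falls were Oog4, Zfp352 and Kpna7, which are known from oocytes and 2-cell embryos. Immp1l, a subunit of the mitochondrial inner membrane peptidase, fell from 355.3 and 295.3 FPKM to 0 and 1.98 FPKM (log2 fold change -7.36, limma SE 0.97, adjusted p = 0.00153). Trim61, a tripartite motif gene, fell from 1256 and 594.4 FPKM to 0.0505 and 13.5 FPKM (limma adjusted p = 0.00490). The 4-cell libraries disagreed with each other but both lay far below the late 2-cell pair. Oog4, an oocyte-specific leucine-rich repeat gene, fell from 74.6 and 108.8 FPKM to no read in either 4-cell library, at least 797.5-fold lower. Zfp352, a zinc finger gene of the 2-cell burst, fell from 101.8 and 76.0 FPKM to 0.0439 and 0 FPKM. Kpna7, an importin of oocytes and cleavage embryos, fell from 63.4 and 81.5 FPKM to no read, at least 997.4-fold lower, with the lowest limma adjusted p of the 10 (0.000326).

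Rfpl4b and Jazf1 also had no read at 4-cell. Rfpl4b, of the Ret finger protein-like family, came from 125.0 and 93.8 FPKM (at least 506.4-fold lower) and Jazf1, a zinc finger protein of chromatin complexes, from 105.1 and 88.8 FPKM (at least 1079-fold lower). Ifitm6, an interferon-induced transmembrane gene, came from 100.1 and 72.4 FPKM to no read (at least 342.8-fold lower). Smco4 fell from 267.6 and 209.4 FPKM to 0 and 1.88 FPKM, and Fbxw23, an F-box gene, from 89.5 and 77.3 FPKM to 0 and 0.209 FPKM. All 10 had limma adjusted p between 0.000326 and 0.0207. Of the 20 genes, 11 passed the test in each of the 4 fits that left out 1 FK866 library, and Ndufaf1, Nudt2, Gtsf1l, Slc8b1 and Zfp352 passed in none of them. Trim61 was not called by voom. The 10 largest rises passed over predicted, clone or RIKEN names, which made up 148 of the 598 genes that rose and 197 of the 853 that fell.

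**Figure D1:**
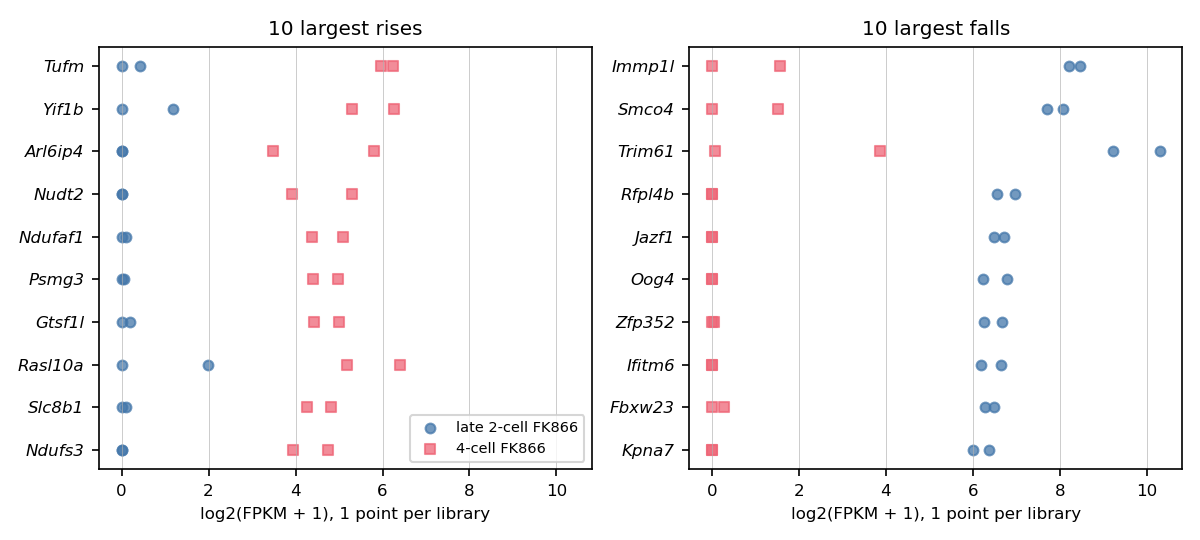
Level of the 10 largest rises and 10 largest falls under FK866, as log2(FPKM + 1) with 1 point per library (circles, late 2-cell; squares, 4-cell). By the rule that chose the 20 genes, both squares lie on one side of both circles in each. For Trim61 the squares lie at 0.0505 and 13.5 FPKM.

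A pair of CpG-rich promoters of named rises and a pair of CpG-poor promoters of named falls are printed as examples, picked after their CpG content was seen. They do not stand for all named genes, since Immp1l and Smco4, the largest falls, have 21 and 22 CG and Yif1b, the second largest rise, has 4. Each line gives 250 bases before and 50 after the RefSeq start on GRCm38.p6, 5′ to 3′ along the gene, with every CG dinucleotide in capitals. Tufm and Ndufs3 rose, Oog4 and Zfp352 fell.
Tufm (chr7:126487105-126487404, plus strand): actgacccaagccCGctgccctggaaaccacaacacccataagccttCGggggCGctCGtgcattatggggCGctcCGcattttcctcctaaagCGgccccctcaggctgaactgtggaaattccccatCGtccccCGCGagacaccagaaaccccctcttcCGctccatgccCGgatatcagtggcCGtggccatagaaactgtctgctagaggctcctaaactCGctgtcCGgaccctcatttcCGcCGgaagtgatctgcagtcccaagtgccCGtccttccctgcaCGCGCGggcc
Ndufs3 (chr2:90904672-90904971, minus strand): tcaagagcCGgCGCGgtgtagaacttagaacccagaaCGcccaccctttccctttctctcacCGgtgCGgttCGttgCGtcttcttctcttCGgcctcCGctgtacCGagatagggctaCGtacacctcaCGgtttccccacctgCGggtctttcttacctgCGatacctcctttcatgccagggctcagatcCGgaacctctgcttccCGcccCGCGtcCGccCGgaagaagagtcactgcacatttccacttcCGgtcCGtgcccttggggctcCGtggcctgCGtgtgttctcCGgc
Oog4 (chr4:143450275-143450574, minus strand): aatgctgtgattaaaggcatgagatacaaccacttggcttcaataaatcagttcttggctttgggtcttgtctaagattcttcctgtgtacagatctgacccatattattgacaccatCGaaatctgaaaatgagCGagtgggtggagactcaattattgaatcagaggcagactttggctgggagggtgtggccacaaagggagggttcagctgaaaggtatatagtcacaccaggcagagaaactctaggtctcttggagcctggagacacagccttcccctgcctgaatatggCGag
Zfp352 (chr4:90218570-90218869, plus strand): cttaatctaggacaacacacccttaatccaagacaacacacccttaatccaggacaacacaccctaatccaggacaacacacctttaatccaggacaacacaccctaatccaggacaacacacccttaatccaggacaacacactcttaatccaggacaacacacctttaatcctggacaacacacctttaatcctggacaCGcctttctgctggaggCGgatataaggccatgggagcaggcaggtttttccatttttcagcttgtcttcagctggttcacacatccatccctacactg
Tufm has 21 and Ndufs3 26 CG dinucleotides, Oog4 has 3 and Zfp352 has 2. The Zfp352 window also holds 9 copies of TAATCC (either strand), the core that homeodomain proteins of the OTX and OBOX kind are known to bind. Among the named genes with a RefSeq promoter, the 9 rises had a median of 20.0 CG (2 to 36) and the 10 falls a median of 3.5 CG (2 to 39), of which Jazf1 held 39.

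A promoter was matched by symbol for 354 of the 598 genes that rose, 628 of the 853 that fell and 5728 of the 8529 tested. The median was 20.0 CG for rises, 17.0 for falls and 20.0 for all genes tested, and 81.6%, 68.6% and 77.6% of them held 10 or more. Among the 50 largest falls, of which 30 were matched, the median was 7.5 CG and 46.7% held 10 or more. The same was not computed for the largest rises, so these values give no contrast between rises and falls. CCGGAA, the core of ETS factor sites, was present on either strand in 146 promoters of genes that rose (41.2%) and 125 of genes that fell (19.9%), against 27.8% of all genes tested and 15.4% of 18517 promoters of the chromosomes in the file. The GC box GGGCGG was in 57.1%, 56.8% and 61.0% of the rises, falls and all genes tested. The box CCAAT was in 34.7%, 40.0% and 39.2% of them. The TATA box, searched as TATAAA, was in 9.04%, 9.08% and 7.58%. The homeodomain core TAATCC was in 8.47%, 6.85% and 6.34%. Both the ETS core and the GC box hold a CG, and their ends can share bases. A match is a run of letters and not a site shown to be bound.

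The early 2-cell libraries, which take no part in the calls, give the earlier level of these genes. Of the 853 genes that fell, 808 were at 1 FPKM or more at early 2-cell (94.7%), against 70.9% of all genes tested and 430 of the 598 that rose (71.9%). The genes that fell entered by their late 2-cell level, and among the 2930 genes tested that had 10 FPKM or more at late 2-cell FK866 the share was 93.4%, so the 94.7% is near that of other genes of like level. Their median early 2-cell level was 24.96 FPKM, close to their 25.5 FPKM at late 2-cell under FK866. Between early 2-cell and late 2-cell FK866 embryos, 233 of them had risen more than 2-fold (27.3%) and 194 had fallen more than 2-fold (22.7%), against 30.8% and 18.0% of all genes tested. Kpna7 and Ifitm6 had been higher at early 2-cell (224.0 and 276.3 FPKM as the mean of 2 libraries), Rfpl4b lower (12.0 FPKM). The genes that rose started from a median of 4.16 FPKM at early 2-cell, and 238 of them (39.8%) were already more than 2-fold higher at late 2-cell under FK866. The share of protein-coding genes was 68.4% among rises, 80.0% among falls and 74.8% among all tested, and the median exon length 2013, 3391 and 3124 bases.

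**Figure D2:**
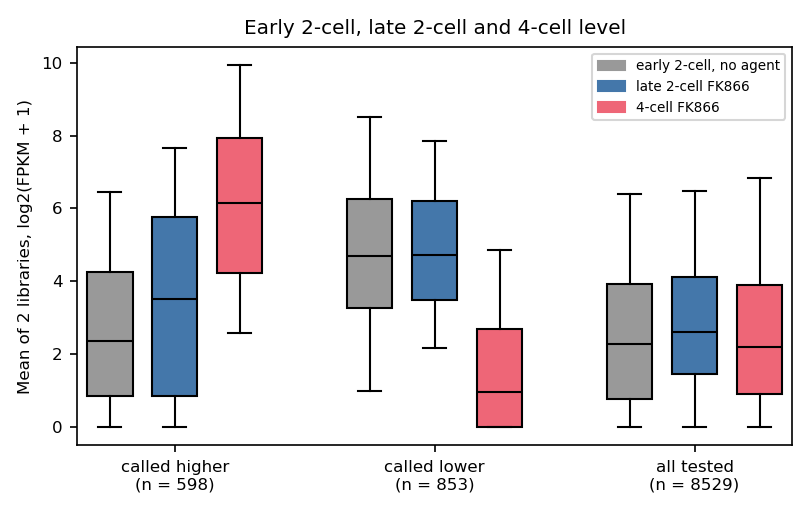
Mean FPKM of 2 libraries as log2(FPKM + 1) at early 2-cell (no agent), late 2-cell FK866 and 4-cell FK866, for the 598 genes called higher, the 853 called lower and the 8529 tested. Boxes span the quartiles with the median as a line and whiskers the 5th and 95th percentiles. The genes that fell have like medians at both 2-cell stages (24.96 and 25.5 FPKM) and 0.941 FPKM at 4-cell.

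Of 32 minor ZGA and 2-cell genes tested, 16 fell and none rose, and the median log2 fold change was -2.81 (-3.10 with 4 members without reads at their bound), beside -0.22 over all genes tested (7.01% of which rose and 10.0% of which fell). Zscan4d, of the zinc finger family that marks the 2-cell burst, fell from 75.3 and 148.0 FPKM to 2.33 and 5.69 FPKM (log2 fold change -4.49, limma SE 0.88, adjusted p = 0.00807). On the log scale the late 2-cell libraries were closer to each other than to either 4-cell library. Rfpl4b, Oog4 and Zfp352 of the same list are described above. Between early 2-cell and late 2-cell control embryos, mean FPKM went from 29.6 to 125.5 for Zscan4d and from 12.0 to 44.5 for Rfpl4b. For Zfp352 it went from 42.6 to 65.1, and for Oog4 from 304.0 to 47.1. The list thus mixes classes, and its fall is not a measure of minor ZGA alone. Zscan5b, which the study also names, had 222.1 and 185.5 FPKM at late 2-cell and 346.0 and 122.1 FPKM at 4-cell, and the groups overlapped (log2 fold change 0.20, limma adjusted p = 0.980). Duxf3, the Dux transcription factor that opens the 2-cell programme, had a summed late 2-cell value that could not be split, 2.12 FPKM as the mean per library, and no read in either 4-cell library. Members of the Zscan4, Obox, Oog and Nlrp families share near-identical copies, and how reads that fit several copies were counted is not given in the sources used here, so their single values are uncertain.

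Of 40 maternal oocyte genes tested, 22 fell and none rose (over all genes tested, 7.01% rose and 10.0% fell), and the median was -2.64 (-2.96 with 6 members at their bound). Nlrp4e and Nlrp9c, of the NLRP family of oocyte proteins, went from 125.0 and 122.1 FPKM to 0 and 1.39 FPKM, and from 100.4 and 70.3 FPKM to 1.30 and 1.59 FPKM (limma adjusted p = 0.00128 and 0.00136). Nlrp9a fell from 63.4 and 97.6 FPKM to 3.96 and 2.36 FPKM. Fbxw15, an oocyte F-box gene, fell from 42.8 and 75.1 FPKM to 0 and 4.01 FPKM (limma adjusted p = 0.0293), a call that was lost with median centring, by voom and in each of the 4 fits without 1 FK866 library. By voom Nlrp9a was not called either. Wee2, the oocyte kinase that holds meiosis, picked after its values were seen, could not be tested because a library of another group was not separated, and stood at 543.8 and 627.5 FPKM and then at 3.44 and 2.41 FPKM. Its 4-cell libraries were both far below the late 2-cell libraries.

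Among 48 ribosomal protein genes tested, 40 rose, none fell and 8 did not pass (over all genes tested, 7.01% rose and 10.0% fell), with a median of 2.25. Rpl5 rose from 18.4 and 9.88 FPKM to 135.9 and 222.5 FPKM (log2 fold change 3.57, limma SE 0.55, adjusted p = 0.00289). Rps27 rose from 105.0 and 33.5 FPKM to 821.6 and 654.3 FPKM, and Rpl7 from 52.1 and 29.3 FPKM to 370.8 and 298.5 FPKM. The lowest 4-cell value lay well above the highest late 2-cell value in each. Rpl34 rose from 9.03 and 8.05 FPKM to 103.6 and 98.6 FPKM. Summed over the 50 members in the rows, the level was 7063 and 7993 FPKM at late 2-cell and 31176 and 27949 FPKM at 4-cell. Ribosomal protein genes have many processed pseudogenes that share their reads.

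Of 43 ribosome biogenesis genes, 8 rose, none fell and 33 were over 2-fold higher, with a median of 1.29. Beside this, 7.01% of all genes tested rose and 28.7% of all expressed genes were over 2-fold higher. Ddx21, an RNA helicase of the nucleolus, rose from 5.71 and 12.2 FPKM to 101.5 and 106.6 FPKM (limma adjusted p = 0.00431). Mrto4 and Noc4l, ribosome assembly factors, rose from 19.1 and 9.52 to 97.4 and 90.0 FPKM and from 9.93 and 6.16 to 51.4 and 56.8 FPKM. Wdr12, of the PeBoW complex of large subunit assembly, was low throughout, at 0.999 and 0.134 FPKM and then 6.70 and 9.45 FPKM, and was not called by voom. Of 30 translation initiation genes, 8 rose and 3 fell (median 0.95), beside 7.01% and 10.0% of all genes tested. Eif3g, Eif3b and Eif3m, subunits of the eIF3 complex, rose: Eif3g from 10.4 and 5.08 FPKM to 116.6 and 118.8 FPKM, Eif3b from 6.20 and 8.75 FPKM to 68.2 and 92.2 FPKM, and Eif3m from 7.58 and 12.1 FPKM to 72.9 and 72.5 FPKM. The call of Eif3m was lost in each of the 4 fits without 1 FK866 library. Eif4e3, a cap-binding protein of the eIF4E family, fell from 99.7 and 47.9 FPKM to 0 and 0.125 FPKM (limma adjusted p = 0.00233).

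Of 41 splicing genes 6 rose and none fell (median 1.33), where 7.01% and 10.0% of all genes tested did, a balance that turned with centring. Lsm5 and Lsm4, of the Sm-like ring of spliceosomal RNA, rose from 4.09 and 1.40 to 44.9 and 98.4 FPKM and from 0 and 5.21 to 50.6 and 45.9 FPKM. Snrpb and Snrpa1, proteins of the spliceosomal small nuclear RNPs, rose from 17.7 and 24.0 to 104.6 and 126.8 FPKM and from 27.0 and 1.98 to 84.1 and 74.99 FPKM. The late 2-cell libraries of Snrpa1 were far apart. Lsm5 was not called by voom, nor without any 1 of the 4 FK866 libraries. Of 23 proteasome genes 7 rose and 1 fell (median 1.89). Psmc4, an ATPase of the regulatory particle, rose from 0.980 and 4.55 FPKM to 70.8 and 41.6 FPKM, Adrm1, a ubiquitin receptor, from 23.3 and 13.2 FPKM to 181.3 and 167.9 FPKM, and Psmb4, a core subunit, from 10.9 and 14.8 FPKM to 176.2 and 133.9 FPKM. Psmb4 was not called without any 1 of the 4 FK866 libraries. The one that fell was Psme4, the activator PA200, named after its values were seen, from 74.3 and 108.6 FPKM to 12.3 and 11.6 FPKM (limma adjusted p = 0.00645). Of 22 chaperone genes 6 rose and 1 fell (median 0.82), among them Hspa8, the constitutive HSC70, from 26.3 and 34.4 to 133.0 and 126.8 FPKM, Dnaja1, its co-chaperone, from 9.06 and 11.1 to 52.5 and 101.3 FPKM, and the chaperonin subunits Cct7 (12.5 and 14.6 to 91.0 and 59.9 FPKM) and Cct2 (24.3 and 40.1 to 148.5 and 125.0 FPKM).

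Of 48 oxidative phosphorylation genes 10 rose and 2 fell (median 1.26), beside 7.01% and 10.0% of all genes tested. Atp5k and Cox4i1, subunits of ATP synthase and of cytochrome c oxidase, rose from 15.9 and 0.599 to 139.2 and 120.4 FPKM and from 0.0720 and 5.00 to 60.4 and 29.5 FPKM, although Cox4i1 was not called without any 1 of the 4 FK866 libraries. Cox6b2, the testis form of a cytochrome c oxidase subunit, fell from 90.5 and 93.6 to 6.68 and 5.13 FPKM (limma adjusted p = 0.00188). Of 18 TCA cycle genes 2 rose and 2 fell (median -0.27), shares not far from those of all genes. Suclg1 and Idh3b, which act in the cycle itself, rose from 0.0967 and 0.0799 to 7.92 and 4.24 FPKM and from 2.58 and 4.74 to 25.8 and 23.7 FPKM. Me1, the cytosolic malic enzyme, fell from 176.9 and 150.0 to 8.75 and 11.1 FPKM (limma adjusted p = 0.00203), and Suclg2, the GTP-forming subunit partner of Suclg1, from 18.0 and 12.9 to 0 and 1.91 FPKM. The call of Suclg2 was lost with centring and in each of the 4 fits without 1 FK866 library.

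Of 21 glycolysis and pyruvate genes only Ldhb, the heart form of lactate dehydrogenase, passed the test (over all genes tested, 7.01% rose and 10.0% fell). It fell from 923.1 and 947.9 FPKM to 103.5 and 80.6 FPKM (log2 fold change -3.33, limma SE 0.54, adjusted p = 0.00372), but was not called by voom. The voom calls of the other members are not given here. Ldha, the muscle form, had 23.6 and 14.3 FPKM and then 7.28 and 6.86 FPKM, and did not pass (log2 fold change -1.30, limma adjusted p = 0.297). Of 13 genes of NAD synthesis and consumption 1 rose and 2 fell (median -0.29), shares not far from those of all genes. Parp1, the main nuclear poly-ADP-ribose polymerase, rose from 5.86 and 1.53 to 38.4 and 23.4 FPKM (limma adjusted p = 0.0191). Parp12, a mono-ADP-ribosyltransferase, fell from 229.0 and 192.3 to 17.6 and 8.92 FPKM, and Tnks, tankyrase, from 10.4 and 8.97 to 0.591 and 1.29 FPKM, the last of which was not called after centring. Sirt1, the nuclear NAD+-dependent deacetylase, had 79.3 and 55.1 FPKM and then 32.4 and 73.1 FPKM. Its groups overlapped (log2 fold change -0.34, limma adjusted p = 0.522). The list of NAD genes names 48, of which 28 were among the genes analysed and 13 were tested. Nampt itself was not analysed here.

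Of 21 histone acetylation genes 5 fell and none rose (median -1.14), beside 10.0% and 7.01% of all genes tested. Brdt, the testis and oocyte bromodomain reader of acetylated histones, fell from 310.9 and 251.5 FPKM to 38.1 and 32.6 FPKM (limma adjusted p = 0.00153). Ncoa2, a nuclear receptor coactivator, fell from 17.2 and 31.1 to 0 and 0.464 FPKM, Mllt3, a YEATS reader, from 31.4 and 35.2 to 1.84 and 1.13 FPKM, and Yeats4 from 95.5 and 115.9 to 23.9 and 17.2 FPKM, the last of which was not called after centring. Of 19 heterochromatin and polycomb genes 3 fell and 1 rose (median -0.23). Bmi1, of polycomb repressive complex 1, fell from 398.6 and 291.8 to 21.2 and 24.9 FPKM, Tet3, the oocyte methylcytosine dioxygenase, from 16.0 and 18.7 to 0.00599 and 1.00 FPKM, and Dnmt3l, a cofactor of DNA methylation, from 34.8 and 55.4 to 8.13 and 7.29 FPKM. The calls of Bmi1 and Dnmt3l were lost by voom and in each of the 4 fits without 1 FK866 library, and that of Dnmt3l also with centring. Trim28, the corepressor of KRAB zinc finger proteins, rose from 13.8 and 5.09 to 57.5 and 37.6 FPKM.

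Of 25 pluripotency and lineage factors 3 rose and 1 fell (median 0.95), beside 7.01% and 10.0% of all genes tested. Dppa5a, an RNA-binding protein of pluripotent cells, rose from 368.8 and 408.8 FPKM to 2155 and 1963 FPKM (log2 fold change 2.40, limma SE 0.35, adjusted p = 0.00233), with each pair of libraries tight. Tead4, the factor that sets up trophectoderm, rose from 8.19 and 11.1 to 122.8 and 45.9 FPKM (limma adjusted p = 0.0380). Yap1, its coactivator, fell from 62.5 and 49.9 to 16.3 and 12.6 FPKM. The call of Tead4 was lost in each of the 4 fits without 1 FK866 library, and that of Yap1 with centring. Of 42 cell cycle genes 4 rose (median 0.39), a share near the 7.01% of all genes, and none fell. The 4 were Mad2l2 from 61.2 and 52.9 to 306.9 and 187.5 FPKM, the replication helicase subunit Mcm6 from 45.7 and 38.4 to 177.5 and 112.1 FPKM, the licensing factor Cdt1 from 103.1 and 68.1 to 323.4 and 168.2 FPKM, and Cdc20, the activator of the anaphase-promoting complex, from 96.8 and 90.5 to 424.8 and 211.3 FPKM. Mcm6 was not called without any 1 of the 4 FK866 libraries.

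Of 27 p53 and DNA damage genes 2 rose and 3 fell (median -0.34), shares near the 7.01% and 10.0% of all genes tested. Mdm4, an inhibitor of p53, fell from 127.3 and 106.7 to 7.94 and 8.81 FPKM (limma adjusted p = 0.00324). Chek1, the replication checkpoint kinase, fell from 42.9 and 42.6 to 2.50 and 7.35 FPKM, and Trp53inp2, an autophagy factor, from 27.1 and 25.1 to 3.29 and 2.04 FPKM. The call of Chek1 was lost with centring and in each of the 4 fits without 1 FK866 library. The other checkpoint kinase Chek2, which the naming rule did not reach and which was picked after its values were seen, rose from 16.9 and 25.6 to 119.0 and 94.2 FPKM. Of 28 redox defence genes 3 rose and 2 fell (median 0.38). The metallothioneins Mt1 and Mt2, which bind zinc and copper, rose from 129.1 and 120.5 to 625.5 and 1059 FPKM and from 29.0 and 27.6 to 112.0 and 131.5 FPKM (limma adjusted p = 0.00153 and 0.0277). Prdx2, a peroxiredoxin, fell from 230.4 and 306.7 to 44.5 and 5.90 FPKM, and Txnip, an inhibitor of thioredoxin, from 10.4 and 18.2 to 0.0320 and 0.101 FPKM. The calls of Mt2 and Txnip were lost in each of the 4 fits without 1 FK866 library, that of Mt2 also by voom and that of Txnip with centring. With centring on the median, the list medians of p53 and DNA damage, NAD, TCA cycle and heterochromatin genes turned from below to above 0 (0.14, 0.18, 0.20 and 0.25) while the other lists described here, apart from that of blood markers, kept their sign.

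**Figure D3:**
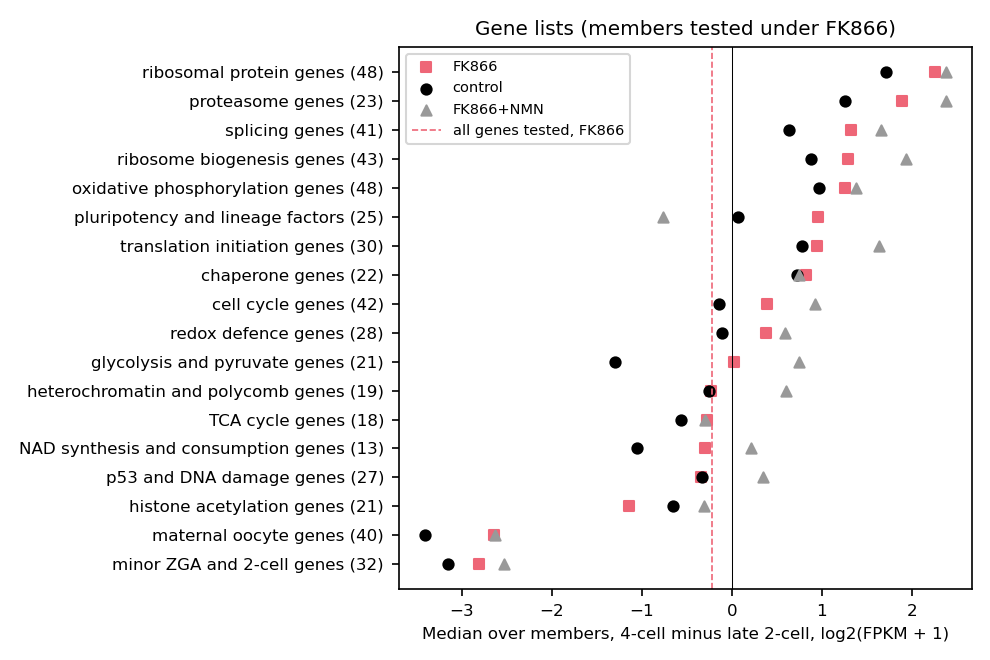
Median log2 difference of 4-cell minus late 2-cell, on log2(FPKM + 1), over the tested members of each list in FK866, control and FK866+NMN embryos. The dashed line is the median of all genes tested under FK866 (-0.22). In control and FK866+NMN embryos the median of all genes tested was -0.42 and 0.28. Of the 18 lists that are not cell type markers, ribosomal protein genes have the highest median under FK866 (2.25) and minor ZGA and 2-cell genes the lowest (-2.81).

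The same stage change was then set beside that of control embryos, which shares no library with it. In control embryos 408 of 8260 genes tested rose (4.94%) and 839 fell (10.2%), and the libraries of the stages lay apart for 24.4% and 32.0% of all genes tested in these directions. Of the 408 that rose, 358 were more than 2-fold higher at 4-cell under FK866 as well (87.7%), 34 were higher by less and 16 were not higher, where 28.7% of all genes of the FK866 comparison were more than 2-fold higher. Of the 839 that fell, 724 were more than 2-fold lower under FK866 (86.3%), 66 lower by less and 49 not lower, beside 38.1% of all genes. The median log2 fold change of the 408 genes was 2.42 in control and 2.18 under FK866, and that of the 839 genes -3.35 and -2.80. The choice favours large control values, so these medians do not measure a weaker change under FK866. The genes were chosen by their control values and by a spread that the fit pooled over all 6 groups, FK866 libraries included. The choice was therefore not wholly free of the FK866 libraries. In embryos given FK866 and NMN, 365 of the 408 (89.5%) and 629 of the 839 (74.97%) moved more than 2-fold the same way, with medians of 2.36 and -2.59. At late 2-cell the NMN libraries had 4213 and 5501 genes at 1 FPKM or more, against 6639 and 6842 with FK866 alone, and the part of this in the NMN values was not tested. The shares depended on the library set: without the larger or the smaller 4-cell control library, 53.2% and 66.5% of the rises of control embryos were more than 2-fold higher under FK866, and without the larger or the smaller late 2-cell control library 56.0% and 59.8% of the falls were more than 2-fold lower.

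**Figure D4:**
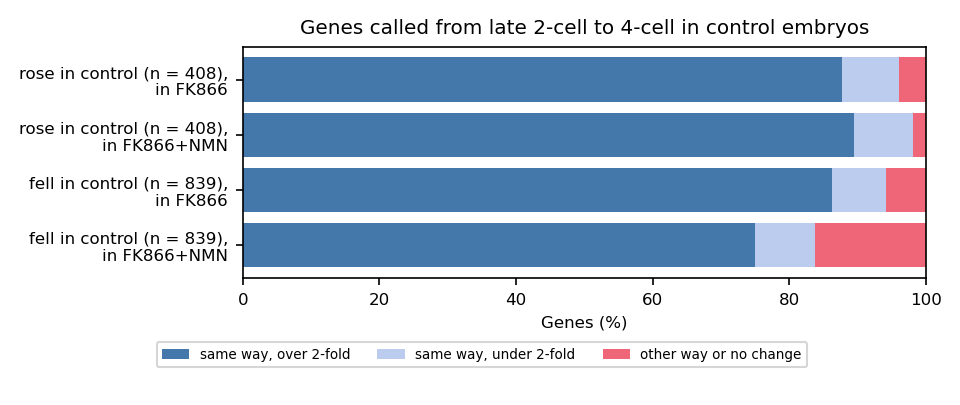
Genes called from late 2-cell to 4-cell in control embryos, as the share (%) that moved the same way by more than 2-fold, the same way by less, or not the same way in FK866 and in FK866+NMN embryos. Under FK866 the first share was 87.7% of 408 rises and 86.3% of 839 falls.

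Read from the other side, of the 598 genes that rose under FK866, 431 were more than 2-fold higher in control embryos (72.1%) and 536 with NMN (89.6%), beside 23.2% and 40.3% of all genes. Of the 853 that fell, 709 were more than 2-fold lower in control embryos (83.1%) and 655 with NMN (76.8%), beside 41.3% and 34.0%. For these genes, chosen under FK866, the larger median was that of FK866. It was 2.49 against 1.67 in control for the rises, and -3.16 against -2.78 for the falls. Both tests called 266 rises, which is 44.5% of the FK866 list and 65.2% of the control list, and 518 falls, which is 60.7% and 61.7%. Of 48 ribosomal protein genes 34 rose in control embryos (median 1.72) and 41 with NMN (2.38), 18 of 33 minor ZGA and 2-cell genes fell in control embryos (-3.15) and 16 of 34 with NMN (-2.53), and 22 of 36 maternal oocyte genes fell in control embryos (-3.41) and 19 of 37 with NMN (-2.63). Proteasome genes had medians of 1.26 in control and 2.38 with NMN embryos, glycolysis and pyruvate genes -1.30 and 0.74 beside 0.03 under FK866, and NAD genes -1.05 and 0.21 beside -0.29. Over all genes tested, 4.94% rose and 10.2% fell in control embryos, and 15.4% rose and 10.2% fell with NMN. The median over all genes tested was -0.42 in control, 0.28 with NMN and -0.22 under FK866. The differences between these lists and groups were not tested. Across 9682 genes r between the FK866 and the control stage change was 0.632, over genes that share library depth and are not independent.

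**Figure D5:**
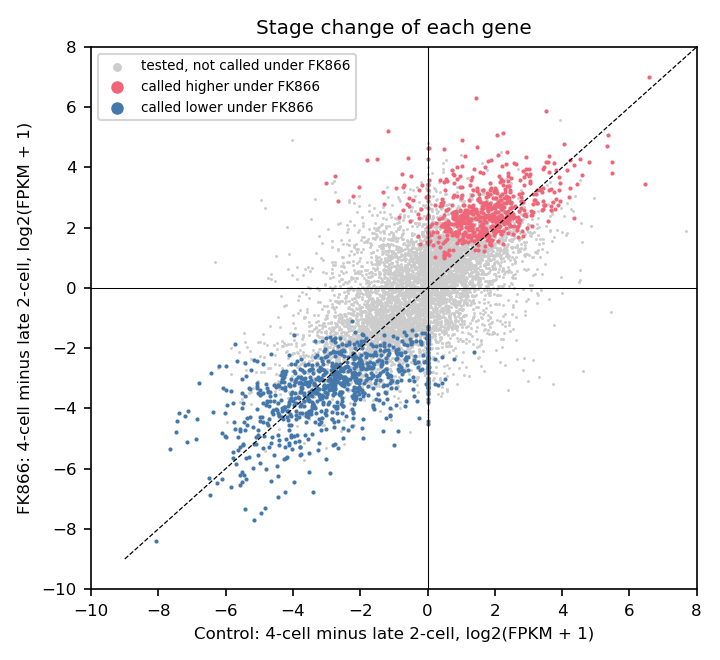
Stage change of each gene in control embryos (horizontal) and under FK866 (vertical), 4-cell minus late 2-cell on log2(FPKM + 1). Grey points were tested and not called under FK866, red points are among the 598 called higher and blue points among the 853 called lower, and the dashed line marks equal change. The column of blue points at 0 on the horizontal axis holds genes without reads in control embryos, of which there are 66.

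No gene passed the test of the difference between the FK866 and the control stage change (0 of 9682, lowest limma adjusted p = 0.196), while 643 had an unadjusted p under 0.05 (6.64%), and limma voom on the separated reads also called 0. The median SE of the difference was 1.09 and the median half-width of its 95% interval 2.43 on the log2 scale, so that differences of 4-fold and more were within the interval for most genes. The count was not stable to the library set: with 1 library of a group left out, so that the other is assumed to vary like the rest, it was 329 and 200 without the larger and the smaller late 2-cell control library, 422 and 331 without those of late 2-cell FK866, 3 and 38 without those of 4-cell FK866, and 0 without either 4-cell control library. Against the stage change with NMN, 0 of 9627 genes passed and 904 had an unadjusted p under 0.05 (9.39%).

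The largest differences, taken among genes whose changes between single libraries did not overlap between FK866 and control, all missed the threshold. Bckdhb, a subunit of the branched-chain keto acid dehydrogenase, had no read at late 2-cell under FK866 and 14.4 and 21.8 FPKM at 4-cell, and in control embryos 19.6 and 20.8 FPKM and then 5.58 and 4.50 FPKM. The difference was 6.07 (limma SE 0.87, adjusted p = 0.196), and the gene rose under FK866 (limma adjusted p = 0.00243). With FK866 and NMN it had 0 and 1.24 FPKM and then 12.3 and 13.1 FPKM. Mos, the oocyte kinase upstream of MAPK, had 20.3 FPKM in 1 4-cell FK866 library and no read in the other 3 FK866 libraries. Rnf215, a RING finger gene, had no read at late 2-cell and 13.2 and 5.09 FPKM at 4-cell under FK866, and 8.28 FPKM in 1 late 2-cell control library. The pseudogenes Rpl23a-ps4 and Fth-ps2, which share reads with their parent genes, complete the 5 largest positive differences (5.55 and 5.54).

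On the negative side stood Zfp982, Tcta, S100a11, Zfp264 and Surf1. Zfp982, a KRAB-type zinc finger gene, had 21.7 and 17.3 FPKM at late 2-cell under FK866 and 0.470 and 3.604 FPKM at 4-cell, but no read at late 2-cell and 3.43 and 43.4 FPKM at 4-cell in control embryos (difference -7.36, limma SE 1.45, adjusted p = 0.244). With FK866 and NMN it had 71.4 and 29.9 FPKM and then 2.58 and 4.78 FPKM. Surf1, an assembly factor of cytochrome c oxidase, had 13.0 and 2.46 and then 1.43 and 3.96 FPKM under FK866, with overlapping groups, and no read and then 14.7 and 10.1 FPKM in control embryos (difference -4.99, limma adjusted p = 0.324). All 5 had no read or under 0.2 FPKM in both late 2-cell control libraries. Only 3 of the 408 control rises were more than 2-fold lower under FK866, which were Surf1, Zfp982 and Eva1b, the last named after its values were seen, and 6 of the 839 control falls were more than 2-fold higher.

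Ldhb fell in both, to 103.5 and 80.6 FPKM under FK866 and to 8.18 and 17.5 FPKM in control embryos, from like levels of 923.1 and 947.9 and of 891.6 and 983.7 FPKM (difference 2.75, limma SE 0.77, adjusted p = 0.449). The 4-cell libraries with NMN had 91.6 and 44.7 FPKM. Oog3 and Klf17 are list members picked after their values were seen. Oog3 fell from 2043 and 3417 to 181.1 and 125.0 FPKM under FK866 (limma adjusted p = 0.000565) and from 2281 and 2237 to 16.8 and 8.21 FPKM in control embryos, and had 188.6 and 108.9 FPKM with NMN. Klf17, a Krüppel-like factor of early embryos, had 276.4 and 462.8 and then 294.0 and 234.5 FPKM under FK866, where it did not pass, 425.8 and 434.3 and then 34.5 and 54.3 FPKM in control embryos, and 393.5 and 251.7 FPKM at 4-cell with NMN. The adjusted p of the difference was 0.196 for both. In these 3 genes the FK866 and the NMN libraries lay above both control libraries at 4-cell.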

How the data were processed

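Per the study's methods, the authors used Trim Galore for trimming, HISAT2 for alignment (mm10) and featureCounts for counting, and deposited FPKM values; each column equals a sum over the libraries of its group. Per the labels, processing tools were CASAVA 1.4 and HISAT2. Columns were assigned to 4-cell groups by equality with the study's tables. For 15737 genes with a unique symbol on chromosomes 1 to 11, of which 15360 had an exon length in GENCODE M21, each value was split into whole reads of its 2 libraries, which succeeded for 97.4 to 97.8% of the values in the 6 columns tested. Here, the mean FPKM per library was compared on log2(FPKM + 1), and limma 3.58.1 (trend) was fitted to 12 libraries in 6 groups with Benjamini-Hochberg adjustment over the genes at 1 FPKM or more in the columns compared. The steps were tested on simulated data. Floors cover counting error only. The p-values and the 95% intervals of the difference rest on the spread between the 2 libraries of a group, pooled over the 6 groups. This spread may be partly technical. Members, gene lists and tests were chosen with earlier results of these data known. Named are the 10 called genes with the largest rise and fall among those whose libraries did not overlap between the stages. Also named are the 5 largest differences from control in each direction (uncalled), up to 4 called members of each list, and genes the study names. Gm, Rik and clone names were passed over. Alternatives were other pseudocounts, filters, centring, libraries, voom and the columns as headed. CUT&Tag samples and the 2 columns of 1 library each were not used here.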

Additional observations from a re-analysis of the deposited data

Results flagged for a closer look

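Among the genes named by rule, 5 had every change between single libraries one way under FK866 and the other way in control embryos, while the test of the difference did not pass. Other genes did the same, such as Kyat1, Zbtb32, Mettl1, Sdcbp and Eva1b. The stage change under FK866 minus that in control was 6.07 for Bckdhb, 5.55 for Rpl23a-ps4 and 5.54 for Fth-ps2 on the log2(FPKM + 1) scale, with limma adjusted p of 0.196, 0.688 and 0.242. It was -7.36 for Zfp982 and -5.04 for Zfp264, with limma adjusted p of 0.244 and 0.568. Bckdhb had no read in either late 2-cell FK866 library and 19.6 and 20.8 FPKM in the controls of that stage. Zfp982 had no read in either late 2-cell control library. With FK866 and NMN the stage change was 3.08 for Bckdhb, -3.46 for Zfp982 and -2.70 for Zfp264, the direction of FK866 alone. It was -0.37 for Rpl23a-ps4 and -1.05 for Fth-ps2, the direction of control. Rpl23a-ps4 and Fth-ps2 are pseudogenes that share sequence with their parent genes. Groups of 2 libraries were not examined for single libraries that stand apart.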

How the results depend on the processing

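No paired analysis was possible because the deposited columns carry no replicate numbers. Among single genes, 1002 of the recomputed values kept direction and side of the threshold, 207 kept direction but no longer passed, 10 newly passed and 42 turned. The 598 rises became 2562 by a 2-fold change between columns alone and 1945 by a 2-fold change with libraries apart, and ranged from 412 to 482 with 1 library left out. The 853 falls became 440 with centring on the median, 190 with the columns as headed, 3409 by 2-fold alone, 2321 by 2-fold with libraries apart, and ranged from 470 to 963 with 1 library left out. The count of genes whose change differed from control was 22 without a filter, 1030 with the columns as headed and 0 to 422 with 1 library left out, a lone library being assumed to vary like the other groups. Of control rises, the share over 2-fold the same way was 80.9% with a pseudocount of 5, 18.4% with the columns as headed, 77.2% by voom, 67.8% by 2-fold with libraries apart, and 53.2% to 83.8% with 1 library left out. Of control falls it was 88.6% and 80.5% with pseudocounts of 0.1 and 5, 92.4% centred, 10.4% as headed, 78.5% by voom, 67.2% by 2-fold with libraries apart, and 56.0% to 89.7% with 1 library left out. Of 81 named genes called, 43 passed without each of the 4 FK866 libraries and 18 passed in none of these 4 fits. Not called after centring were Fbxw15, Yap1, Chek1, Tnks, Suclg2, Yeats4, Dnmt3l and Txnip. Not called by voom were Trim61, Fbxw15, Nlrp9a, Ldhb, Bmi1, Dnmt3l, Wdr12, Lsm5 and Mt2.

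With the columns as headed, the log2 fold change turned to -0.053 for Ndufaf1, 0.29 for Immp1l, 0.77 for Zfp352, 0.29 for Ifitm6, 0.40 for Kpna7, -1.49 for Tead4, -0.53 for Dppa5a, -0.43 for Mad2l2, -0.00532 for Mcm6, -2.03 for Cdc20, -1.74 for Cdt1, -1.87 for Parp1, 0.33 for Ldhb, 0.24 for Me1, -2.22 for Idh3b, 0.87 for Mllt3, 0.64 for Brdt, 0.78 for Yeats4, 0.068 for Bmi1 and 0.14 for Tet3. It turned to -1.30 for Ddx21, -0.74 for Mrto4, -0.55 for Eif3g, -2.23 for Eif3m, -1.05 for Lsm5, -1.85 for Lsm4, -2.48 for Snrpb, -2.15 for Snrpa1, -0.16 for Cct7, -1.78 for Psmc4, -0.95 for Adrm1, 1.08 for Prdx2, -0.21 for Mt1, -0.40 for Rpl34, -2.49 for Rps27, -1.86 for Rpl7, 1.23 for Cox6b2 and -4.30 for Zscan5b, and the difference from control to 0.25 for S100a11. These columns are other libraries, so the values differ by construction. With 1 library left out Zscan5b ranged from -0.73 (without the larger 4-cell FK866 library) to 0.76 and Sirt1 from -1.03 to 0.12 (without that same library), and Sirt1 turned to 0.13 centred. The cause was not tested. The smaller 4-cell FK866 library, with 3169677 reads, had 8098 genes with reads and the larger had 7528. At 1 FPKM or more there were 6107 genes in the smaller and 5851 in the larger.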

Other observations

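Of the genes that fell under FK866, 66 had no read in any of the 4 control libraries. Of these, 41 were at 1 FPKM or more in early 2-cell embryos, where 70.9% of all genes tested were. Among genes tested that had 1 FPKM or more at late 2-cell FK866, that share was 77.8%. The median level of the 66 genes at late 2-cell under FK866 was 4.55 FPKM, and 7 of the 66 reached 1 FPKM at late 2-cell with NMN. The NMN libraries of that stage had 4213 and 5501 genes at 1 FPKM or more, against 6639 and 6842 with FK866 alone. The part of this in the count of 7 was not tested. Of the genes that rose, 19 had no read in the control libraries. How many of all genes tested had no read there was not counted, so the 66 and the 19 have no share to be set beside.

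Of 6 falls of control embryos that were more than 2-fold higher under FK866, which were picked after their values were seen, 2 have ordinary names. Kyat1, a kynurenine aminotransferase, had no read at late 2-cell and 2.15 and 1.73 FPKM at 4-cell under FK866. Zbtb32, a zinc finger repressor, had 0 and 0.157 FPKM and then 5.43 and 0.937 FPKM. The difference from control had a limma adjusted p of 0.242 for both.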
